A study of Mus musculus with 4 samples.

Results

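The Hist1 locus of mouse chromosome 13 was examined for binding of SSRP1 in E14 embryonic stem cells, an established pluripotent line. Its members are the SSRP1 peaks whose summit lies at 21600000 to 22200000 or at 23500000 to 23900000 on build mm9. Mouse chromosomes carry their centromere at the low-numbered end, so these stretches are called the proximal window (600 kb) and the distal window (400 kb). The windows were chosen by the measured density of peaks, so the density itself is a description and not a result. They held 57 of the 5011 peaks of replicate 1 (24 proximal, 33 distal) and 64 of the 2342 peaks of replicate 2 (32 and 32), that is 121 of 7353 peaks.

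The series comprised 2 SSRP1 ChIP samples and 2 input samples of the same untreated cells, grown in serum with leukemia inhibitory factor on gelatin. Chromatin had been fixed with formaldehyde and sonicated, and bound DNA was pulled down with an SSRP1 antibody and sequenced. Each ChIP sample gave 1 peak list, and values of the inputs were not analysed here. No genotype or treatment separates the samples, and the labels do not say whether the replicates were separate cultures, so differences between the lists may be technical. With 2 lists no test over samples is possible, and peaks of a locus are not replicates, so all comparisons below are descriptions without p-values.

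SSRP1 and SPT16 form FACT, a histone chaperone that holds H2A, H2B, H3 and H4 while nucleosomes are taken apart and rebuilt in front of and behind RNA and DNA polymerases. The Hist1 locus holds most of the replication-dependent histone genes, which are short, lack introns, and are transcribed strongly during S phase to package the newly made DNA. Core histones H2A, H2B, H3 and H4 form the nucleosome, and H1 binds the linker between nucleosomes. Embryonic stem cells divide fast and spend much of their cycle in S phase.

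In RefSeq's annotation of build GRCm38.p6, 55 genes of the locus carry an older Hist1 symbol, namely 6 for H1, 14 for H2A, 15 for H2B, 9 for H3 and 11 for H4. In neighbour order they form a block of 19 genes from H2bc13 to H4bc24 (an H2B gene by its older symbol), a block of 5 from H2ac12 to H2bc11, and a block of 31 from H4c8 to H2ac1, counting blocks as separate where 10 or more other genes lie between. Between the blocks lie 39 and 147 other genes. The H2A gene H2ac14 is annotated as a pseudogene. H2A and H2B genes were direct neighbours 13 times, and at least 10 of these pairs point away from each other, so that their start sites face the same short stretch of DNA. That build is not the build of the peaks, so no peak is assigned to a gene here, and no statement is made on exon, intron or UTR.

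Promoter sequences are shown to make visible what the locus is built from, 250 bases before the start site, from RefSeq on GRCm38.p6. Their positions on mm9 were not determined, so a promoter shown may lie outside the windows. Of the 55 genes 51 had an entry (52 promoters), and H2ac14, H2bc4, H3c1 and H3c7 had none. H1f3 (chr13:23554782-23555031, plus strand) and H1f1 (chr13:23763418-23763667, plus strand) encode linker histones. H2bc1 (chr13:23934157-23934406, minus strand) encodes an H2B of the male germ line and faces H2ac1, whose own 250 bases share 220 with it. H3c2 (chr13:23752095-23752344, plus strand) and H4c4 (chr13:23581318-23581567, plus strand) encode core histones. Capitals mark the motifs searched on both strands, which are TATAAA and CCAAT in all 5, AAACACA (the box of H1 genes) in H1f3 and, read on the other strand, in H2bc1, and ATTTGCAT (the octamer of H2B genes) in H2bc1. All but H1f1 were chosen because they hold the motifs searched for their family, so the presence of these motifs there is not a result. No motif occurrence overlapped another. Sequences read 5′ to 3′ towards the gene.

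H1f3: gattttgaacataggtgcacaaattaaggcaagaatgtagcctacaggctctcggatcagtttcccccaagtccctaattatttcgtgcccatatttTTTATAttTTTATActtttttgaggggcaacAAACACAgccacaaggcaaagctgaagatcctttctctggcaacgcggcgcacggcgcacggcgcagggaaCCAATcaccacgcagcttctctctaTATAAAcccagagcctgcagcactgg
H1f1: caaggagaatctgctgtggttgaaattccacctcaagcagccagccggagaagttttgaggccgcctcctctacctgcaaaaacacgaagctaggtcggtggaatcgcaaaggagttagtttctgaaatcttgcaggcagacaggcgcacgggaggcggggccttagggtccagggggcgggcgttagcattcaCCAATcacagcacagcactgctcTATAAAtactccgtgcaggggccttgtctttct
H2bc1: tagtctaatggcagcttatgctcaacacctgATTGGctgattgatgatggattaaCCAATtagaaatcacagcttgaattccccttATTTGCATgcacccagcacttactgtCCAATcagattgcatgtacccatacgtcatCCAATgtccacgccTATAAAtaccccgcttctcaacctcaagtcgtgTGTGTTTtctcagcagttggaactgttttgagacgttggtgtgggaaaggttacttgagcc
H3c2: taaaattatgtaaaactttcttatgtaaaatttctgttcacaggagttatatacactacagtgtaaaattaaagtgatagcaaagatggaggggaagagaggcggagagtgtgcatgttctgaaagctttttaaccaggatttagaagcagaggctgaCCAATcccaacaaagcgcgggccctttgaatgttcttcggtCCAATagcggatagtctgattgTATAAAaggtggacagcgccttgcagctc
H4c4: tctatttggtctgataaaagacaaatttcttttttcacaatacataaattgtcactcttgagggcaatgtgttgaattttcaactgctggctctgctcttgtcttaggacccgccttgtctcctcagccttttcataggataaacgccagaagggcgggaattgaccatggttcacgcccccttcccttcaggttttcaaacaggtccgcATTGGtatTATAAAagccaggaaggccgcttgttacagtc

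In H1f3 the H1 box begins 122 bases before the start site, the nearest CCAAT box lies 51 bases before it, and the nearest TATA box lies 26 bases before it. H1f1 has its CCAAT box 56 bases and its TATA box 33 bases before the start site, and it lacks the H1 box. CCAAT was found in 44 of 52 histone promoters (84.6%), against 33.8% of all 32851 promoters of the table. All 41 of the H1, H2A, H2B and H3 promoters held it, but 3 of 11 H4 promoters did. AAACACA was found in 5 of 6 H1 promoters, in 2 of 13 H2A and 2 of 15 H2B promoters, and in 6.25% of all promoters. ATTTGCAT was found in 6 of 15 H2B and 5 of 13 H2A promoters, in none of the 24 others, and in 1.60% of all promoters. Promoters of facing genes can overlap, so that the same motif counts for both. This holds for ATTTGCAT and AAACACA in H2ac1 and H2bc1. TATAAA was found in 26 of 52, against 12.4% of all. Such matches describe the sequence and show no binding.

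SSRP1 peaks were spread over stretches of similar length in both windows. In the proximal window summits ran over 328 kb in each list, starting at 21807734 and ending at 22135359 in replicate 1, and at 21807744 and 22135452 in replicate 2. In the distal window the first summit was at 23517393 and the last at 23855982 in replicate 1, against 23504611 and 23855908 in replicate 2. Peaks covered 2.18% of the proximal and 4.55% of the distal window in replicate 1, and 4.29% and 8.26% in replicate 2. On the rest of chromosome 13 they covered 0.0529% and 0.0482% of the spanned length. Per 100 kb this was 4.00 and 8.25 peaks in replicate 1, 5.33 and 8.00 in replicate 2, and 0.149 and 0.0772 elsewhere on the chromosome.

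The borders of the windows fell in stretches with few peaks, except the lower distal border, which had peaks close inside it. Just outside the lower proximal border lay peaks at 21418825 (replicate 1, fold 6.08, 285 bp wide) and 21371837 (replicate 2, fold 8.67, 306 bp). Just inside lay the first proximal peaks, with folds of 6.13 and 21.9, 208 kb from the border. At the upper proximal border the last peaks inside had folds of 6.87 and 26.1 and lay 64.6 and 64.5 kb from it, and the next peaks outside lay 885 and 1063 kb beyond it, with folds of 4.32 and 6.69. At the lower distal border the peaks inside, with folds of 3.98 and 5.61, lay 17.4 and 4.61 kb from it. Those outside had folds of 4.07 and 6.69. At the upper distal border the last peaks inside, with folds of 7.48 and 23.5, lay 44.0 and 44.1 kb from it, and the next ones outside, with folds of 4.91 and 5.06, lay 954 and 710.2 kb beyond it. The 1300 kb between the windows held 2 peaks of replicate 1 and 1 of replicate 2, and none of these was in both lists.

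**Figure D1:**
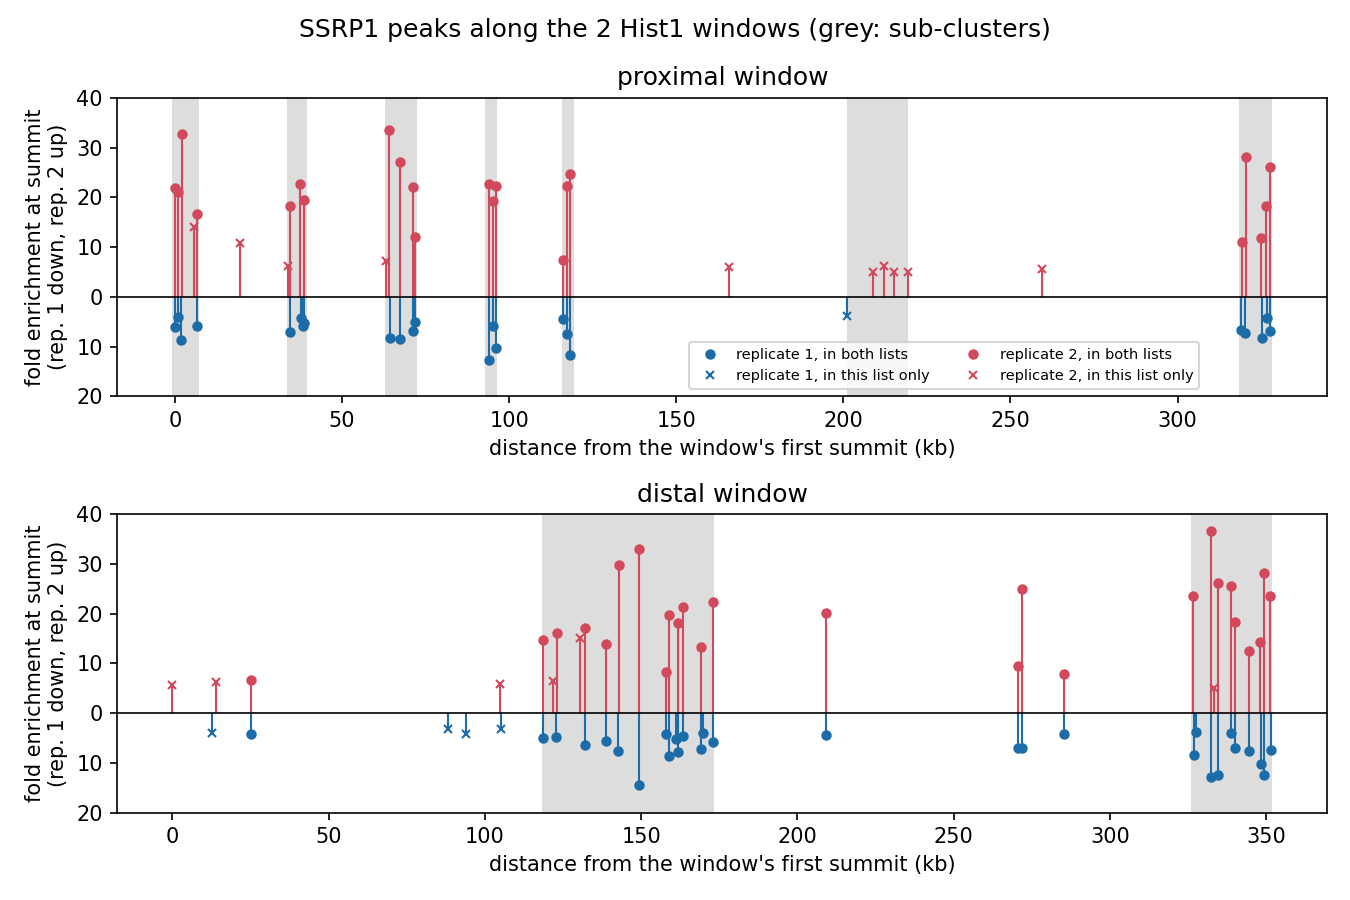
Fold enrichment at each summit (vertical axis, replicate 2 upward and replicate 1 downward) against the distance in kb from the window's first summit, for the proximal and distal windows. Circles are peaks found in both lists, crosses peaks in 1 list, and grey bands the 9 sub-clusters; the 7 proximal bands are short, the 2 distal bands are 54.9 and 26.0 kb long.

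In the proximal window the gap between neighbouring summits had a median of 1.32 kb in replicate 1 and 3.09 kb in replicate 2, and few gaps were of middle size. The proximal medians depended on weak peaks and stood at 3.90 and 1.58 kb for peaks with −log10 q of at least 10. Of 23 gaps in replicate 1, 17 were at most 5 kb, 0 were between 5 and 20 kb and 6 were longer. Of 31 gaps in replicate 2 these classes held 22, 2 and 7. In the distal window the medians were 4.45 and 4.30 kb, and middle-sized gaps were common, with 10 of 32 and 10 of 31 between 5 and 20 kb. Elsewhere on chromosome 13 the median gap was 102 kb in both lists, with 60.8% and 59.7% of gaps over 20 kb. Close spacing was not particular to the locus: 50 of 158 gaps of replicate 1 and 29 of 77 of replicate 2 elsewhere on the chromosome were also at most 5 kb.

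**Figure D2:**
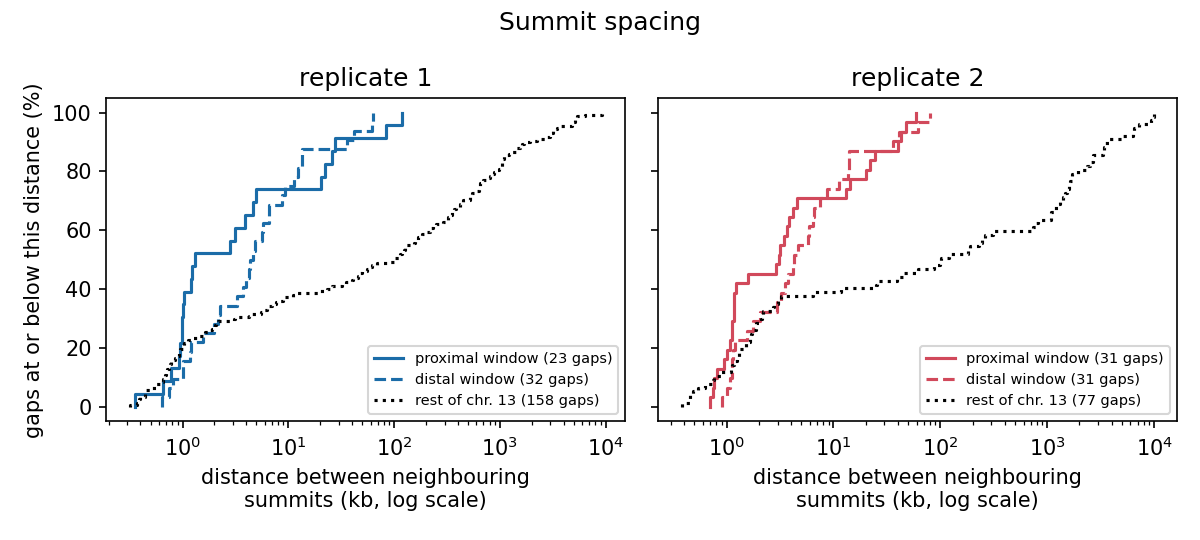
Share of gaps (percent) at or below a distance between neighbouring summits (kb, log scale) in replicate 1 and replicate 2, for the proximal window, the distal window and the rest of chromosome 13. The proximal lines end at 118 and 59.8 kb and the distal lines at 63.0 and 79.5 kb in replicates 1 and 2, while the median gap of the rest of the chromosome is 102 kb.

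For sub-clusters, overlapping peaks of both lists were merged to sites, and sites were chained while the gap between them was at most 10 kb. Chains of 3 or more sites are called sub-clusters. The proximal window had 33 sites, 30 of them in 7 sub-clusters. The distal window had 36 sites, 24 of them in 2 sub-clusters. At this gap the proximal window thus held short islets, and the distal window a pair of longer runs with single sites around them. The contrast in number depended on the gap, since 5 kb gave 7 proximal and 4 distal sub-clusters and 20 kb gave 5 and 4. With the gap of 10 kb, 67 of 188 sites on the rest of chromosome 13 lay in 15 chains. A chain there at 98252728 to 98276612 also had 14 sites, 8 of them in both lists. Over the genome the same chaining gave 458 chains, with 2372 of 5896 sites. The distal runs ranked 19 and 34 among them by number of sites, and 3 and 5 by sites found in both lists, of which they had 12 and 9.

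Of the proximal islets, 5 followed each other between 21806986 and 21927237, separated by gaps of 26.4, 23.5, 20.4 and 19.5 kb. They held 5, 4, 5, 3 and 3 sites on 7.90, 5.84, 9.59, 3.53 and 3.56 kb of DNA. Their median folds lay between 5.62 and 10.3 in replicate 1, and between 18.9 and 22.4 in replicate 2. These values overlapped widely within each list, so none of the 5 islets stood apart.

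The first islet, 21806986 to 21814889, had its strongest site at 21809695, where replicate 1 gave a fold of 8.63 and replicate 2 one of 32.7. Its 4 sites found in both lists had folds from 4.12 to 8.63 and from 16.7 to 32.7. The remaining site, at 21813512, was found in replicate 2 with a fold of 14.1 and had no partner, the nearest peak of replicate 1 being 0.565 kb away. That unpaired site was also the weakest of the islet in replicate 2.

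In the second islet, 21841307 to 21847150, 3 of 4 sites were in both lists. Its site at 21842210 had folds of 7.13 and 18.3. Replicate 2 drew 1 peak of 1181 bp over 2 peaks of replicate 1, at 21846120 and 21846474. The third islet, 21870612 to 21880196, held the highest proximal fold of replicate 2, 33.6 at 21871958, where replicate 1 had 8.19. Its next site, at 21875029, had folds of 8.45 and 27.1. The same islet held the widest proximal peak of replicate 1, 1121 bp with a fold of 6.79.

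The fourth and the fifth islet were the shortest, and all 6 of their sites were in both lists. The site at 21901645 had the highest proximal fold of replicate 1, 12.7, against 22.7 in replicate 2. Its neighbour at 21903871 had folds of 10.3 and 22.3, with summits 5 bp apart. In the fifth islet the site at 21925954 had folds of 11.7 and 24.7, and the site at 21925012 had 7.53 and 22.4. The 3 highest proximal folds of replicate 1 were in these islets, whereas those of replicate 2 were in the third, the first and the seventh sub-cluster.

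After the fifth islet came a stretch of 199 kb with weak, narrow peaks found in 1 list each. It held 1 peak of replicate 1, with a fold of 3.92, and 6 of replicate 2, with folds of 4.93 to 6.29 and widths of 200 to 330 bp. Of these peaks 5 lay within 10 kb of the next one and so met the chaining rule as the sixth sub-cluster, 22008785 to 22027226, but it had 0 of 5 sites in both lists. The seventh, 22126163 to 22136154, again had all 5 sites in both. Its site at 22128055 had folds of 7.27 and 28.1. Its site at 22133052 had 8.24 and 11.9 and carried the widest proximal peak of replicate 2, 1642 bp.

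The distal window opened with a stretch of 123 kb that was sparse beside its runs. In it, 1 of 5 peaks of replicate 1 and 1 of 4 of replicate 2 were found in both lists. Folds there were 3.14 to 4.23 and 5.61 to 6.69. The peak shared in this stretch, at 23529823, was the narrowest of the distal window in both lists, 200 and 232 bp, with folds of 4.23 and 6.69. Then followed the longest run of the locus, 23622942 to 23677832, with 14 sites on 54.9 kb, 12 of them in both lists.

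In this run the site at 23653823 had folds of 14.5 in replicate 1 and 33.0 in replicate 2, the highest of replicate 1 in the whole locus. The site at 23647304 had folds of 7.61 and 29.7, and the 283 fragments recovered over its summit were the most among the members of replicate 2. At 23663472 folds were 8.62 and 19.7, and the peak of replicate 2 was 2811 bp long, the widest of all members, over 2 peaks of replicate 1. The site at 23666487 had 7.85 and 18.0. The 2 sites of this run that only replicate 2 had were at 23634965 (fold 15.1) and 23626465 (fold 6.41), 1.19 and 0.530 kb from a peak of replicate 1.

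Between the distal runs, 153 kb held 4 peaks in each list, and all of them were in both. They were single or in a pair and had folds of 4.21 to 7.02 in replicate 1 and, in replicate 2, of 7.86 to 24.97. The strongest in replicate 2, at 23776457, had 6.92 in replicate 1, and the lone site at 23713722 had 20.2 against 4.40. In replicate 2 these lone sites lay within the range of folds seen in the runs.

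The last run, 23830653 to 23856603, had 10 sites on 26.0 kb, 9 of them in both lists, and the highest fold of replicate 2 among all members. That was at 23837038, with 36.6 in replicate 2 and 12.8 in replicate 1, and summits 3 bp apart. The site at 23839025 had folds of 12.4 and 26.2, and the site at 23853807 had 12.4 and 28.2. At 23852796 they were 10.3 and 14.4, at 23831380 8.35 and 23.5, and at 23849055 7.66 and 12.5. Of the 10 distal pairs ranked highest by the lower of their folds, 6 were in this run and 4 in the longer one.

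Inside the 9 sub-clusters lay 48 of the 57 peaks of replicate 1, of which 47 were in both lists, and 53 of the 64 of replicate 2, of which 43 were. The median fold inside was 6.83 in replicate 1 and 18.3 in replicate 2, against 4.21 and 6.69 for the 9 and 11 members outside. Median widths were 510.5 and 997 bp inside, and 349 and 454 bp outside. The ranges of fold overlapped, with 3.73 to 14.5 inside and 3.14 to 7.02 outside in replicate 1, and 4.93 to 36.6 and 5.61 to 24.97 in replicate 2.

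A larger share of members than of all peaks was found in both lists, most clearly in replicate 1. There, 23 of 24 proximal peaks (95.8%, exact 95% binomial interval 78.9 to 99.9%) and 29 of 33 distal peaks (87.9%, 71.8 to 96.6%) overlapped a peak of replicate 2. Of the whole list 27.7% did, and of the rest of chromosome 13 52 of 161 peaks (32.3%, 25.2 to 40.1%). In replicate 2, 22 of 32 proximal (68.8%, 49.99 to 83.9%) and 26 of 32 distal peaks (81.3%, 63.6 to 92.8%) were shared, against 54.9% of the whole list and 41 of 80 (51.3%, 39.8 to 62.6%) on the rest of the chromosome. The proximal interval of replicate 2 holds the share of the whole list, so the proximal peaks of replicate 2 did not stand apart in this. With −log10 q of at least 10 in both lists, all members left in replicate 1 were shared, against 44.8% of its whole list. In replicate 2 the shares were then 57.7% and 62.1%, near the 59.97% of its whole list. Intervals cover counting error only and treat neighbouring peaks as independent, which they are not.

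The members without a partner were weak in replicate 1, where the 5 of them had folds of 3.14 to 4.21. The strongest distal ones by −log10 q were at 23598532 (fold 4.21), 23517393 (3.98) and 23609790 (3.28), and the only proximal one was at 22008913 (3.92). In replicate 2 the 10 proximal ones had folds of 4.93 to 14.1 and the 6 distal ones of 5.06 to 15.1. By −log10 q, the strongest proximal ones of replicate 2 were at 21813512 (fold 14.1), 21827291 (10.9, 12.7 kb from the nearest peak of replicate 1) and 21870839 (7.23). By the same measure the strongest distal ones were at 23634965 (15.1), 23626465 (6.41) and 23504611 (5.61). The site at 23609333 lay 0.182 kb from a peak of replicate 1 that it did not touch, so near misses of overlap were among them.

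Paired one to one, the 22 proximal pairs had summits a median of 43.5 bp apart (5 to 377 bp) and the 26 distal pairs 45 bp (2 to 193 bp). In 38 of the 48 pairs the distance was at most 100 bp. Elsewhere on chromosome 13 the median over 41 pairs was 69 bp (0 to 1568 bp), and 26 of them were within 100 bp.

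Peaks as deposited were wider in the locus than on the rest of chromosome 13 by median. Median widths were 493.5 bp (200 to 1121) in the proximal and 471 bp (200 to 1114) in the distal window in replicate 1. In replicate 2 they were 867.5 bp (200 to 1642) and 1043.5 bp (232 to 2811). Elsewhere on chromosome 13 they were 300 bp and 345 bp. Peaks over 1000 bp made up 7 of 57 members in replicate 1 and 29 of 64 in replicate 2, against 3 of 161 and 13 of 80 elsewhere on the chromosome. The order of the lists depended on how neighbouring peaks were split, since merging peaks within 1 kb gave replicate 1 a proximal median of 1729 bp, above the 1327.5 bp of replicate 2. Ranges overlapped in every case, and the widest peak of the chromosome in each list, 2284 and 6483 bp, lay outside the locus.

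Within a pair the peak of replicate 2 was nearly always the wider one, in 21 of 22 proximal and all 26 distal pairs, by median ratios of 1.82 and 1.75. It enclosed the whole peak of replicate 1 in 41 of 48 pairs (85.4%). On the rest of chromosome 13 it was wider in 25 of 41 pairs, by a median ratio of 1.13, and enclosed its partner in 12 (29.3%). A peak of replicate 2 covered 2 peaks of replicate 1 at 4 places, of which 3 were distal. Width and fold went together across members, with Spearman's rho = 0.57 and 0.70 in the windows in replicate 1 and 0.74 and 0.55 in replicate 2. Elsewhere on the chromosome rho was 0.24 and 0.39. These are descriptions across peaks of 1 library each.

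**Figure D3:**
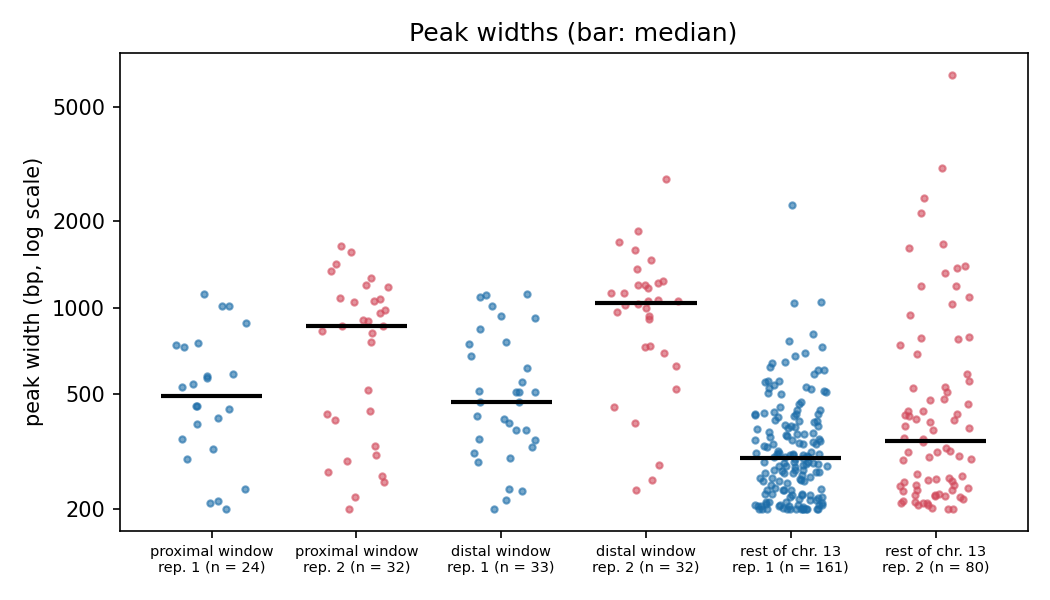
Width in bp (log scale) of every peak in the proximal window, the distal window and the rest of chromosome 13, for replicate 1 (blue) and replicate 2 (red), with the median as a bar. Medians of replicate 2 are 867.5 and 1043.5 bp in the windows and 345 bp on the rest of the chromosome.

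The place of the members in their own list differed greatly between the replicates. Fold enrichment here is the authors' ratio at the summit over local background. By −log10 q, 30 of the 64 members of replicate 2 were among the top 100 of its 2342 peaks (16 proximal, 14 distal), and 1 of the 57 members of replicate 1 was among the top 100 of its 5011. The median rank by fold was 80.5 (proximal) and 98 (distal) in replicate 2, and 603.5 and 1073 in replicate 1. The rest of chromosome 13 had 1 peak among the top 100 by −log10 q in each list. The lists have different lengths, and whether binding differed between the replicates was not tested.

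All 48 pairs had the higher fold in replicate 2. The ratio had a median of 3.22 in the proximal window (1.44 to 5.48) and of 2.53 in the distal window (1.36 to 6.42), which on the log2 scale is 1.69 (SD 0.54 over 22 pairs) and 1.34 (SD 0.56 over 26 pairs). Among the 41 pairs of the rest of chromosome 13 replicate 2 had the higher fold in 33, and the ratio there had a median of 1.29 (0.572 to 2.07). This difference was known from earlier results of these data and is a description. Spearman's rho between the folds of the lists was 0.53 and 0.50 over the 22 and 26 pairs, near the 0.52 of the rest of chromosome 13 and the 0.50 of all 1233 pairs.

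**Figure D4:**
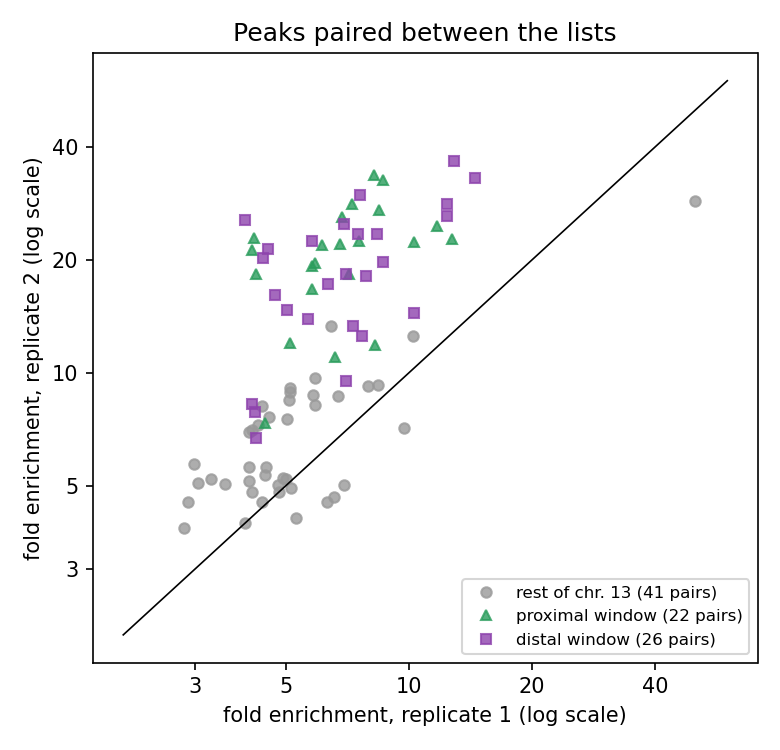
Fold enrichment of paired peaks in replicate 1 (horizontal) and replicate 2 (vertical), both on log scales, for the proximal window, the distal window and the rest of chromosome 13, with the line of equal folds. All 48 pairs of the windows lie above the line, as do 33 of 41 pairs of the rest of the chromosome.

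The depth behind these folds could be recovered from each peak's fold and p-value by the formulas of MACS2. Over the summits of the pairs lay a median of 30.5 fragments (18 to 67) in the proximal and 30 (17 to 75) in the distal window in replicate 1. In replicate 2 there were 160.5 (68 to 246) and 159 (47 to 283), each counting as 0.416 after scaling to the control. Pairs elsewhere on chromosome 13 had medians of 20 and 49. Local background in the pairs was 4.10 and 3.93 in replicate 1, where the lowest of the list was 2.28, and 2.07 and 2.20 in replicate 2, where the lowest was 2.07. With scaled fragments over that lowest background, the median ratio of replicate 2 to replicate 1 was 2.36 in the proximal and 2.17 in the distal window, and 47 of 48 pairs stayed above 1. On the rest of chromosome 13 it was 1.04. The exception was the narrow distal site at 23529823, with 24 and 47 fragments and a ratio of 0.896.

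Many histone genes of 1 family are near-identical copies, though not all, and how reads that fit several places were counted is not given in the sources used here. Its part in the height and agreement of these peaks was not tested. Read totals are not in the lists.

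A 400 kb window of chromosome 3 around the smaller Hist2 histone locus, with summits from 96023933 to 96380575, was set beside it. It held 25 peaks of replicate 1, of which 20 were shared, and 27 of replicate 2, of which 17 were shared. Median folds were 6.29 and 8.86 there, against 6.69 and 18.3 in the proximal and 5.78 and 16.6 in the distal window of chromosome 13. Median widths were 436 and 416 bp. Of its 17 pairs, 14 had the higher fold in replicate 2 (median log2 ratio 1.13). Over the lowest background 11 of the 17 were higher in replicate 2, and the median log2 ratio was 0.06 (−0.90 to 1.16). In the Hist1 windows these medians were 1.24 (0.10 to 1.91) and 1.12 (−0.16 to 1.73), so the ranges overlapped. The peak of replicate 2 was the wider one in 9 of 17 pairs and enclosed its partner in 6 (35.3%). These values pool the whole chromosome 3 window, whose sites were unlike. Its first sub-cluster, 96041215 to 96053242, had 4 of 5 sites in both lists. There, replicate 2 had a median fold of 19.6 and a median width of 912 bp, near those of the Hist1 islets. At those 4 sites its peaks were 1717, 912, 527 and 1757 bp wide, with 149, 334, 200 and 143 fragments. Their partners in replicate 1 were narrower, with 632, 823, 350 and 485 bp and with 40, 91, 58 and 45 fragments. The counts of wider and enclosing peaks over the whole window thus do not describe this sub-cluster. In the other sub-clusters of that window the median folds of replicate 2 were 5.68 to 8.86, but single peaks reached 27.1 in the second and 26.2 in the fifth. The highest fold of replicate 2 in that window, 32.8 at 96263350 with 21.2 in replicate 1, lay outside its sub-clusters. The differences between that window and the Hist1 locus were not tested.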

How the data were processed

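Peaks of 2 SSRP1 ChIP samples were used, 1 list per sample. STAR, MACS2, deepTools and mm9 are named in the submitters' processing notes, without roles. Their versions and settings, and the control used, are not given in these sources. Each deposited list gives, per the narrowPeak format of the files, start, end and summit, the authors' fold (a ratio over local background), −log10 p and −log10 q, and a score. The deposited score is the whole part of 10 times −log10 q and was not used.

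Lists were read with Python 3.11.15, pandas 2.3.3 and scipy 1.17.1. Positions count from 1. Peaks were shared when they overlapped by at least 1 bp. Pairs were formed one to one, highest lower-of-the-two fold first. Fragments were solved from fold and p-value and accepted within 0.01 of a whole fragment, which held for 5002 of 5011 and all 2342 peaks, and for all members. Recovery of fragments at a given scaling, pairing and chaining were tested on simulated data, and the other procedures were not. Members, gene lists and rules were chosen with earlier results of these data known. Peaks named are the 10 pairs of each window with the highest lower-of-the-two fold, the 3 strongest unshared of each list and window, the widest and narrowest, those at the borders, and the ends of sub-clusters; others named were chosen after their values were seen. Promoters shown are those of the first H1, H2B, H3 and H4 gene, in name order, that holds its motifs, and of an H1 gene without AAACACA. The H2A promoter chosen in the same way, that of H2ac1, is not printed and shares 220 of its 250 bases with that of H2bc1.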

Additional observations from a re-analysis of the deposited data

How the results depend on the processing

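Of 68 recomputed values, 46 stayed within the range taken as the same (counts within 1.5 times, shares within their interval, spacing and width within the SD of the 2 lists, fold ratios within the SD over pairs), 22 moved, and the sign of no log2 fold ratio reversed. The order of replicates 1 and 2 turned for some medians, as given below. A −log10 q minimum of 10 left 15 proximal and 18 distal peaks in replicate 1, and with a minimum of 5 or 10 in both lists 100% of replicate 1's peaks in each window were shared, against 32.4% and 44.8% of its whole list. With the minimum of 10, replicate 2's shares were 57.7% (proximal) and 62.1% (distal), against 59.97% of its whole list. Merging peaks within 1 kb left 12 and 18 proximal peaks in replicates 1 and 2, with median widths of 1729 and 1327.5 bp, so that the wider list was replicate 1. Median proximal spacing was 3.90 kb in replicate 1 and 1.58 kb in replicate 2 with a minimum of 10, and 22.7 and 13.02 kb after merging, the larger value being replicate 1's in both, whereas it was replicate 2's as deposited. Median distal spacing was 4.29 and 4.46 kb with a minimum of 5, 4.59 kb in replicate 1 with a minimum of 10, and 5.71 and 6.97 kb after merging; at the minimum of 5 and after merging replicate 2 had the larger one, whereas replicate 1 had it as deposited. Chaining with a gap of 5 kb or of 20 kb gave 4 distal sub-clusters each, against 2, and 7 and 5 proximal ones, against 7. Without replicate 1 or without replicate 2, 7 and 6 proximal and 2 and 2 distal sub-clusters were left. The log2 fold ratios stayed between 1.12 and 1.69 in the settings tried. No paired analysis was possible because the results come from no test. The lists give no read totals, so weak sites missing from a list cannot be told apart from sites below its detection limit.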
